A study of Homo sapiens with 6 samples.

Results

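The genes described here make ribosomes. They are 54 factors of the nucleolus, the nuclear body where ribosomes are assembled: chaperones, proteins of the small nucleolar ribonucleoproteins (snoRNPs), processing and assembly factors of both ribosomal subunits, and RNA polymerase I with its cofactors. They were chosen by symbol from a list of known factors, and each of the 54 was found among the 56305 gene symbols counted. The cells were MOLM13, a human acute myeloid leukemia (AML) line, kept for 24 h in DMSO, the solvent control, or in 1 µM ZW27941. ZW27941 is a proteolysis-targeting chimera (PROTAC) that brings METTL3, the catalytic subunit of the m6A RNA methyltransferase, to the VHL ubiquitin ligase for degradation. Cells of both groups carry an internal tandem duplication in FLT3 (FLT3-ITD) and the t(9;11)(p22;q23) translocation, and each group has 3 RNA-seq libraries. The labels number the libraries as replicates and do not say whether they came from separate cultures, so the p-values below measure the spread between these libraries, which may be technical. The comparison asks whether RNAs for ribosome synthesis differ on ZW27941. The series has no library with a non-degrading control compound, so effects of METTL3 degradation and other effects of ZW27941 cannot be told apart.

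Ribosome synthesis starts when RNA polymerase I, placed on ribosomal DNA by UBTF and RRN3, transcribes 1 long precursor of ribosomal RNA. Box C/D snoRNPs then methylate riboses, box H/ACA snoRNPs convert uridines to pseudouridine, and the small subunit processome, helicases and GTPases fold and cut the precursor while ribosomal proteins are added. In leukemia cells, which grow and divide fast, the pathway is highly active, and NPM1, one of its chaperones, is among the genes most often mutated in AML.

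The libraries held 143454176 to 178744976 counts on genes, and 20399 genes passed a filter on low counts, all 54 factors among them. These totals exceed the 50M raw reads per sample that the labels name, and the reason is not given in the sources used here. Levels are CPM, the count of a gene scaled to a common library total with TMM factors (trimmed mean of M values). The share of counts on mitochondrial genes was 2.59% to 2.72% on DMSO and 2.90% to 2.99% on ZW27941, and its part in the results was not tested. Of 8 myeloid markers, 7 were above 1 CPM in every library, with a summed level of 2003 to 2071 CPM on DMSO and 2215 to 2282 CPM on ZW27941. Most of that difference was LYZ (lysozyme), with means of 963 and 1159 CPM, while FLT3 stood at 563 and 555 CPM. CD68 was the marker below that level, at 0.206 to 0.244 CPM. Of 7 markers of other lineages only PECAM1 was above 1 CPM in every library, and the list summed to 256 to 266 CPM on DMSO and 324 to 333 CPM on ZW27941. Nearly all of that sum was PECAM1, with means of 259 and 327 CPM, so the shift in the sum was that of this gene. A single gene of the list does not show that cells of another lineage were present. The part of these shifts in the results was not tested. In bulk RNA, fewer cells of a type and less RNA per cell cannot be told apart, and CPM do not show the total amount of RNA per cell.

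The stretches of DNA just before the annotated 5′ ends of the genes with the widest differences are shown first. Each is read 5′ to 3′ on the strand of the gene, ends outside both the RefSeq start and the 5′ end in GENCODE v29, and touches no annotated exon (sequence from RefSeq, build GRCh38.p14). The 150 bases before NPM1 are chr5:171386966-171387115 (plus strand), the 150 bases before RRP9 are chr3:51941942-51942091 (minus strand), and the 137 bases before NOP10 are chr15:34343178-34343314 (minus strand), up to the neighbouring gene NUTM1. The 150 bases before UTP20, chr12:101279955-101280104 (plus strand), are set beside them as those of a factor that did not pass the test and carries an E box. Capitals mark a match to 1 of 4 motifs on either strand: CACGTG (the E box bound by MYC and its relatives), CCGGAAGT (ETS factors), AAGATGGC (YY1) and GGGCGG (the GC box of SP factors).
NPM1: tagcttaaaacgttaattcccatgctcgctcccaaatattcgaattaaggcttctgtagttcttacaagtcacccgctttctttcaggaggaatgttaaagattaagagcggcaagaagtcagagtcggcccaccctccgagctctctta
RRP9: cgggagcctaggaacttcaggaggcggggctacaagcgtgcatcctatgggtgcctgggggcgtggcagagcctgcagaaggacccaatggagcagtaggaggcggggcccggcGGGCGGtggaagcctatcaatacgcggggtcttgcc
NOP10: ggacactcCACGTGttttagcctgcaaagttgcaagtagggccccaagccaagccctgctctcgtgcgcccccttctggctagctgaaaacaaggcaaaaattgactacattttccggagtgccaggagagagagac
UTP20: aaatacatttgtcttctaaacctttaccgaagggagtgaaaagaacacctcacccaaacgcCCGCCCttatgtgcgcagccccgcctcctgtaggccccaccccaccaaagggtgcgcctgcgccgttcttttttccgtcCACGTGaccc
The stretch before NPM1, which precedes the outer of 2 RefSeq starts at 171387116 and 171387849, held none of the 4 motifs. Which of the 2 starts the NPM1 RNA used was not tested, so it may not start beside this stretch. The stretch before RRP9 held 1 GC box, that before NOP10 held 1 E box, and that before UTP20 held 1 E box and 1 GC box. The stretches leave out bases at or inside the 5′ ends in GENCODE v29, and matches nearer the RefSeq start are therefore not shown: 1 E box for RRP9, and 1 more E box, 1 ETS motif and 1 GC box for NOP10.

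Both directions were found among the 54 factors, and the differences were small. On ZW27941, 11 factors fell and 10 rose at an adjusted p under 0.05 (edgeR's quasi-likelihood test, Benjamini-Hochberg over all genes tested). Those 11 are 20.4% of the factors, where 13.8% of all genes tested fell, and the 10 are 18.5%, where 16.3% of all genes rose. In either direction 21 factors passed (38.9%), against 30.1% of all genes. The share that passed was higher among abundant genes: of the 7792 genes at a mean of 20 CPM or more, a limit chosen after the values were seen, 47.5% passed, and of the 52 factors at that level 40.4% passed. In that set of abundant genes 21.4% fell and 26.1% rose. The share of all 54 factors that rose, 18.5%, was thus above that of all genes and below that of the abundant genes. The median log2 fold change of the factors was -0.00093, beside -0.0019 for all genes, and single values ran from -0.28 for NPM1 to 0.32 for NOP10. No factor passed a log2 fold change of 1 in size, 3 passed 0.2 and 15 passed 0.1. Among the factors that passed the test, the median size was 0.13 on the log2 scale, beside 0.17 for all genes that passed and 0.13 for those at 20 CPM or more. The 3 libraries of one group all lay on one side of the other group for 24 factors (44.4%), 12 in each direction, where 41.6% of all genes and 57.0% of those at 20 CPM or more showed this.

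The split into 11 lower and 10 higher changed little with RLE normalization (12 and 9) or library size only (10 and 11). It moved with upper quartile normalization and with single libraries left out. With upper quartile normalization, which lowers the median of all genes to -0.025, 17 factors fell and 6 rose. Leaving out DMSO replicate 2 or DMSO replicate 3 left 6 factors higher in each case, and leaving out ZW27941 replicate 3 gave 15 lower and 7 higher.

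**Figure D1:**
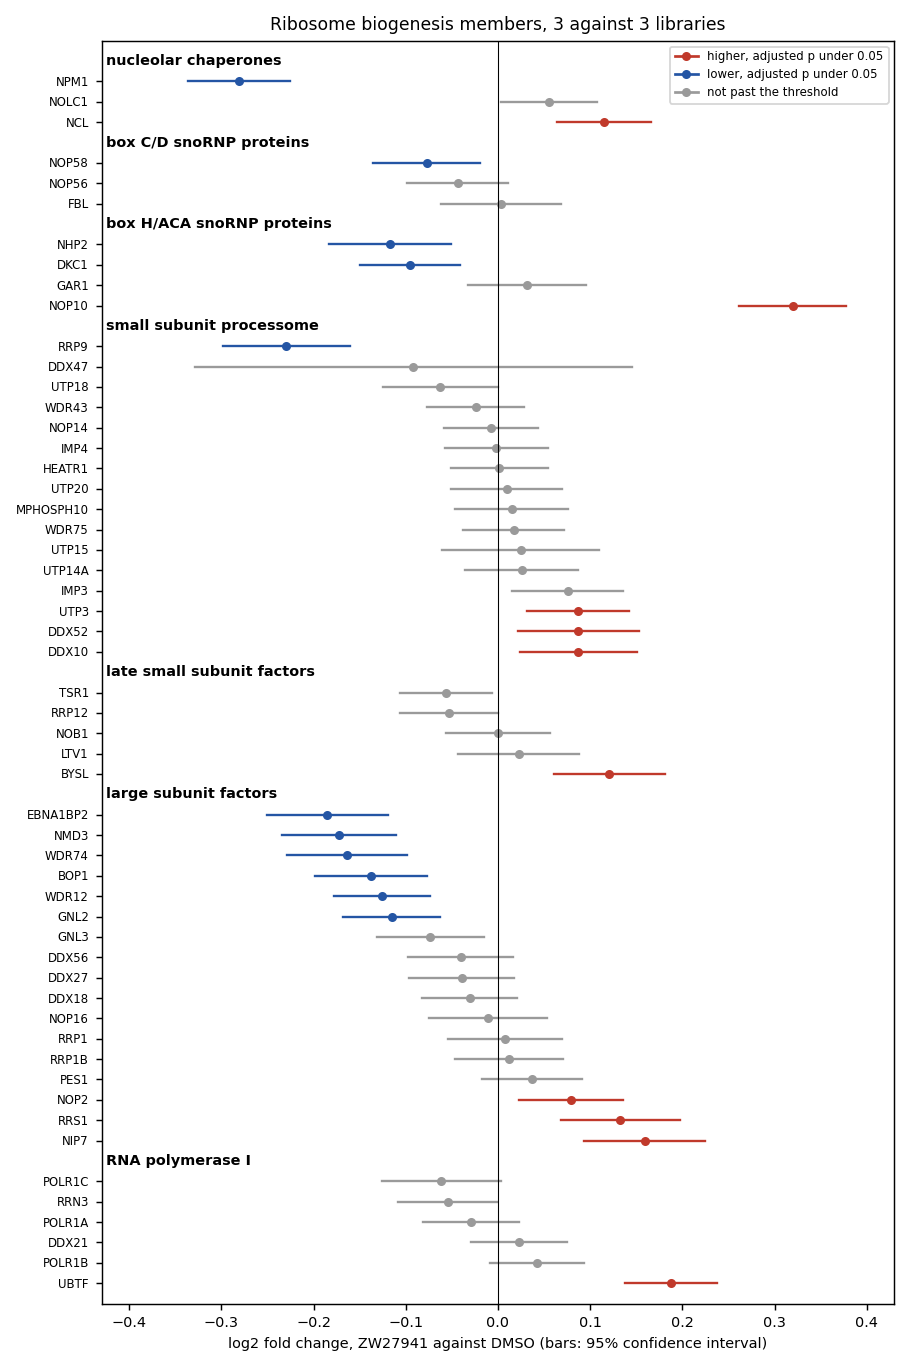
Log2 fold change of each of the 54 factors, ZW27941 against DMSO (x axis), with its 95% confidence interval, ordered by role and coloured by the outcome of edgeR's test. NPM1 at -0.28 and NOP10 at 0.32 lie farthest from 0, and 33 of the 54 factors did not pass.

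Among the chaperones, NPM1 fell and NCL rose. NPM1 (nucleophosmin), which forms the outer layer of the nucleolus and shuttles to the cytoplasm, stood at 1390.4, 1374 and 1417 CPM on DMSO and at 1110.2, 1163 and 1170.2 CPM on ZW27941. Every ZW27941 library lay below every DMSO library. The log2 fold change was -0.28 (SE 0.027, adjusted p = 8.29e-08, edgeR), so that NPM1 fell by 17.7%. NCL (nucleolin), an RNA-binding protein that associates with nascent ribosomal RNA, stood at 1387, 1374 and 1360.2 CPM on DMSO and at 1471, 1490.3 and 1502 CPM on ZW27941. The groups did not overlap here either, with ZW27941 on the high side by a log2 fold change of 0.12 (SE 0.025, adjusted p = 0.00108, edgeR). The pair was close to equal in CPM on DMSO and apart on ZW27941: the ratio of NPM1 to NCL, looked at after the values had been seen, was 1.00, 1.00 and 1.04 in the DMSO libraries and 0.755, 0.780 and 0.779 on ZW27941. NOLC1, which escorts snoRNPs in the nucleolus, stood at 225, 215 and 213 CPM on DMSO and at 225, 227 and 226 CPM on ZW27941, with no overlap and with 0.055 on the log2 scale (95% confidence interval 0.0031 to 0.11), and did not pass (adjusted p = 0.104, edgeR). It passed when DMSO replicate 1 was left out (adjusted p = 0.0364, edgeR).

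NPM1 has many processed pseudogenes whose reads counting can split from the gene. The files hold 45 symbols of this kind, of which 6 were tested and 2 fell. Their summed level was 49.6, 49.2 and 48.5 CPM on DMSO, 3.52% of NPM1, and 40.5, 40.2 and 44.3 CPM on ZW27941. Nearly all of it was NPM1P27, whose log2 fold change was -0.23 (SE 0.033, adjusted p = 1.4e-05, edgeR). Whether those reads came from the pseudogene or from NPM1 cannot be told apart in counts.

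Of 3 core proteins of box C/D snoRNPs, which guide ribose methylation, 1 fell and 2 did not pass (33.3% passed, beside 30.1% of all genes). FBL (fibrillarin), the methyltransferase, stood at 511, 530.0 and 512 CPM on DMSO and at 489.6, 519.7 and 547 CPM on ZW27941. The libraries were mixed, and the log2 fold change was 0.0029 (95% confidence interval -0.062 to 0.068, adjusted p = 0.955, edgeR). NOP56, a scaffold protein of the particle, stood at 242, 234 and 232 CPM on DMSO and at 224, 226 and 237 CPM on ZW27941, with -0.044 on the log2 scale (interval -0.099 to 0.011, adjusted p = 0.235, edgeR). Its ZW27941 replicate 3 lay inside the DMSO range, and without that library NOP56 passed (adjusted p = 0.0278, edgeR). NOP58, the partner of NOP56, stood at 141, 134 and 136 CPM on DMSO and at 129, 125 and 134 CPM on ZW27941. Its log2 fold change was -0.077 (SE 0.028, adjusted p = 0.0407, edgeR), so NOP58 fell, although ZW27941 replicate 3 lay above the lowest DMSO library. The call was close to the threshold and was lost in several fits that left out a library. The adjusted p was 0.204 without DMSO replicate 1, 0.0779 without DMSO replicate 3, 0.0971 without ZW27941 replicate 1 and 0.224 without ZW27941 replicate 2 (edgeR). Such fits have fewer libraries, and their log2 fold changes were -0.056, -0.082, -0.074 and -0.055 in that order. SNU13, a further core protein of the particle that is not among the 54 factors but among the further pathway genes below, stood at 110.6, 108.9 and 110.2 CPM on DMSO and at 98.8, 98.7 and 105.6 CPM on ZW27941. It fell without overlap, with a log2 fold change of -0.12 (SE 0.028, adjusted p = 0.00194, edgeR).

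Of the 4 core proteins of box H/ACA snoRNPs, 1 rose, 2 fell and 1 did not pass (75% passed, beside 30.1% of all genes). These particles place pseudouridines in ribosomal RNA, and the same proteins sit on telomerase RNA. NOP10, the smallest of them, stood at 59.5, 58.0 and 62.0 CPM on DMSO and at 74.0, 75.8 and 74.2 CPM on ZW27941. The groups were far apart, and NOP10 rose by a log2 fold change of 0.32 (SE 0.028, adjusted p = 2.72e-08, edgeR), or 24.8%. DKC1 (dyskerin), the pseudouridine synthase to which NOP10 binds, stood at 159.9, 156 and 158 CPM on DMSO and at 145, 145 and 154 CPM on ZW27941. All ZW27941 libraries were below the DMSO libraries, and DKC1 fell by a log2 fold change of 0.095 (SE 0.026, adjusted p = 0.00811, edgeR). NHP2, the RNA-binding member, stood at 99.4, 98.9 and 96.7 CPM on DMSO and at 93.1, 84.9 and 94.0 CPM on ZW27941, with ZW27941 replicate 2 the lowest of the 6 libraries. NHP2 fell by 0.12 on the log2 scale (SE 0.032, adjusted p = 0.00723, edgeR). Without ZW27941 replicate 2 neither passed, at an adjusted p of 0.0566 for DKC1 and 0.0773 for NHP2 (edgeR). GAR1, which helps the enzyme release its substrate, stood at 39.4, 39.4 and 38.6 CPM on DMSO and at 38.4, 40.9 and 40.8 CPM on ZW27941. Its groups overlapped, with 0.032 on the log2 scale (95% confidence interval -0.032 to 0.095, adjusted p = 0.482, edgeR). In CPM, the ratio of NOP10 to DKC1, also looked at after the values had been seen, was 0.372, 0.371 and 0.392 on DMSO and 0.510, 0.521 and 0.483 on ZW27941. NHP2 shares 27.4% of its exon bases with RMND5B on the opposite strand, and the strand setting of the counting is not given in the sources used here.

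**Figure D2:**
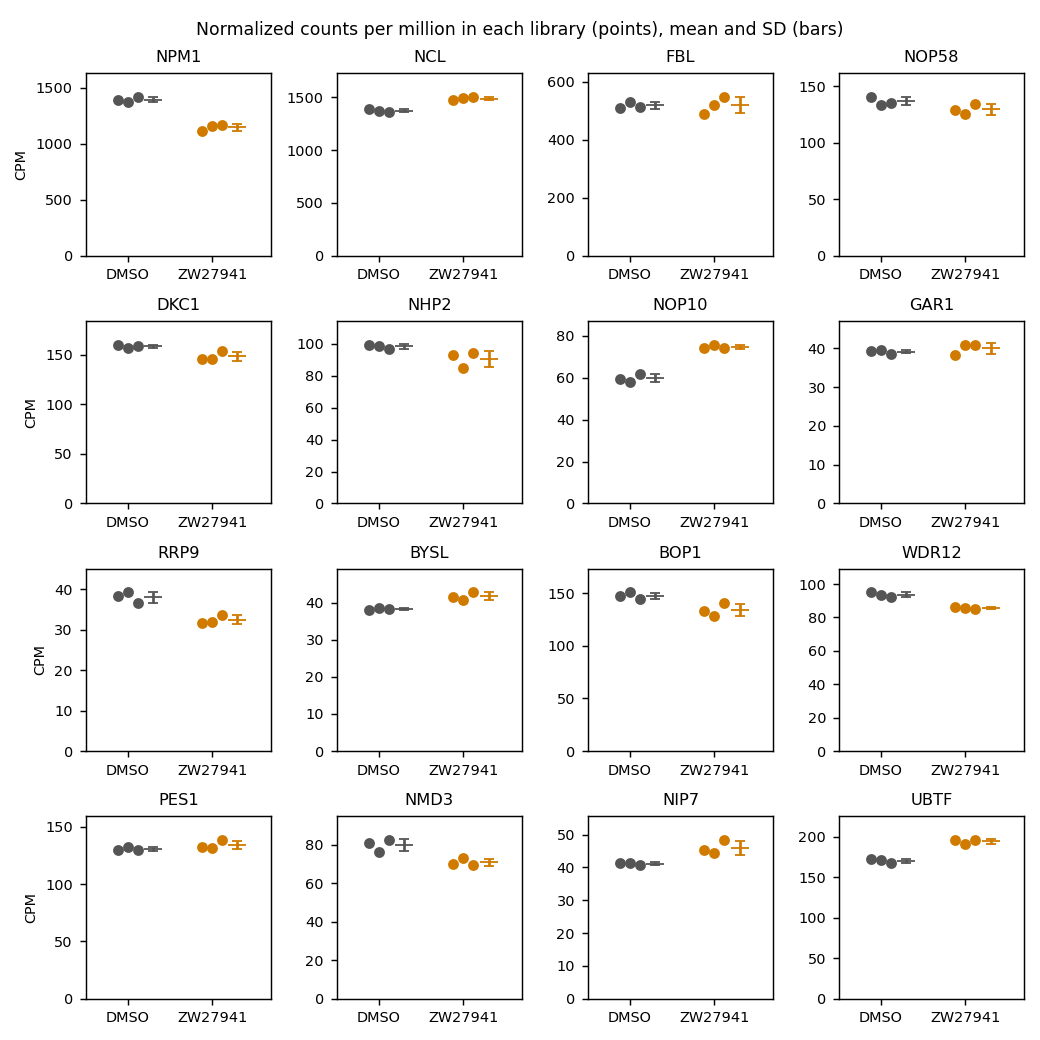
CPM of 16 factors (y axes start at 0) in each of the 6 libraries (points), with the mean and SD of 3 libraries beside them. The ZW27941 points lie wholly below the DMSO points for NPM1, DKC1, NHP2, RRP9, BOP1, WDR12 and NMD3. They lie wholly above them for NCL, NOP10, BYSL, NIP7 and UBTF, and overlap them for FBL, NOP58, GAR1 and PES1.

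In the small subunit processome, the large particle that folds and first cuts the precursor, 1 of 16 factors fell, 3 rose and 12 did not pass. In either direction 25% passed, where 30.1% of all genes tested and 47.5% of those at 20 CPM or more passed. RRP9, a protein of the U3 snoRNP that guides the early cuts, stood at 38.3, 39.2 and 36.5 CPM on DMSO and at 31.5, 32.0 and 33.7 CPM on ZW27941. No ZW27941 library reached the DMSO range, and RRP9 fell by 0.23 on the log2 scale (SE 0.033, adjusted p = 1.88e-05, edgeR), the second largest fall among the factors after NPM1. UTP3, a component of the processome, stood at 47.4, 46.4 and 46.6 CPM on DMSO and at 49.6, 49.4 and 50.1 CPM on ZW27941. The groups were close to each other but did not overlap, and UTP3 rose by 0.087 on the log2 scale (SE 0.027, adjusted p = 0.0172, edgeR). It did not pass without DMSO replicate 2 (adjusted p = 0.0586, edgeR) or DMSO replicate 3 (adjusted p = 0.0581, edgeR). DDX10, an RNA helicase of the DEAD-box family, stood at 42.8, 41.5 and 40.4 CPM on DMSO and at 42.8, 44.8 and 44.9 CPM on ZW27941. DMSO replicate 1 and ZW27941 replicate 1 were nearly equal, and the log2 fold change was 0.087 (SE 0.030, adjusted p = 0.0340, edgeR). DDX52, another DEAD-box helicase of the early small subunit, stood at 34.0, 33.0 and 31.5 CPM on DMSO and at 35.4, 34.5 and 34.7 CPM on ZW27941, without overlap. Its log2 fold change was 0.087 (SE 0.032, adjusted p = 0.0414, edgeR).

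Those helicase calls were close to the threshold and were lost in most fits that left out a library, which have fewer libraries. DDX10 did not pass without DMSO replicate 2, DMSO replicate 3, ZW27941 replicate 2 or ZW27941 replicate 3, with an adjusted p of 0.0828, 0.164, 0.127 and 0.0951 (edgeR). DDX52 passed only without DMSO replicate 1 among the fits that left out a library, and the adjusted p in the others ran from 0.0519 without ZW27941 replicate 3 to 0.229 without DMSO replicate 3 (edgeR), with 0.0766 without DMSO replicate 2, 0.145 without ZW27941 replicate 1 and 0.0634 without ZW27941 replicate 2.

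The 12 other processome factors had log2 fold changes between -0.092 and 0.076. HEATR1 (0.0013), UTP15 (0.024), WDR43 (-0.024) and WDR75 (0.017) belong to the subcomplex that joins transcription to processing, and none passed. HEATR1 shares 23.2% of its exon bases with LGALS8 on the opposite strand, which stood at a mean of 130 CPM on DMSO. LGALS8 rose by 0.16 on the log2 scale (adjusted p = 0.000141, edgeR), and the part of that overlap in the value of HEATR1 was not tested. UTP18 (-0.062) is part of the UTP-B subcomplex, UTP14A (0.026) acts late in the processome, and UTP20 (0.0093) is a large scaffold protein. U3-associated proteins were NOP14 (-0.0077), IMP3 (0.076), IMP4 (-0.0019) and MPHOSPH10 (0.015). IMP3 was the nearest to the threshold (adjusted p = 0.0533, edgeR), its 3 ZW27941 libraries above the 3 DMSO libraries, and it passed without ZW27941 replicate 2 (adjusted p = 0.0374), with library size only (0.0304) and with no filter (0.0458, edgeR). IMP3 shares 31.2% of its exon bases with SNX33 on the opposite strand, which rose by 0.16 on the log2 scale (adjusted p = 0.000775, edgeR), and reads of that pair cannot be told apart without the strand setting. UTP18 passed without ZW27941 replicate 3 (adjusted p = 0.0309, edgeR). DDX47, a helicase, was measured at a level far below the other factors, 1.07 to 1.36 CPM over the 6 libraries, and at -0.092 on the log2 scale its 95% confidence interval was the widest, -0.33 to 0.15. DDX47 shares 36.5% of its exon bases with APOLD1, which stood at a mean of 23.7 CPM on DMSO, and the part of that overlap in the low count was not tested.

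Of 5 factors that carry the small subunit through its late steps, BYSL rose and 4 did not pass. The share that passed was 20%, beside 30.1% of all genes tested. BYSL (bystin), which stays on the small subunit until its export, stood at 38.1, 38.6 and 38.3 CPM on DMSO and at 41.6, 40.6 and 42.7 CPM on ZW27941. The ZW27941 libraries were all higher, by a log2 fold change of 0.12 (SE 0.029, adjusted p = 0.00285, edgeR). NOB1, the nuclease that makes the last cut of the small subunit RNA, had a log2 fold change of 5.23e-06 (95% confidence interval -0.057 to 0.057). LTV1 (0.023) is an export factor, TSR1 (-0.056) a GTPase-like protein and RRP12 (-0.053) a repeat protein needed for export. The 3 ZW27941 libraries of TSR1 lay below its DMSO libraries, at 108.9 to 111.2 CPM against 113.6 to 115.4 CPM, without passing (adjusted p = 0.0841, edgeR). TSR1 shares 20.7% of its exon bases with SRR on the opposite strand, which stood at a mean of 4.27 CPM on DMSO. SRR rose by 0.40 on the log2 scale (adjusted p = 0.000195, edgeR), and the part of that overlap in the value of TSR1 was not tested.

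In the large subunit group, the largest, 6 of 17 factors fell (35.3%) and 3 rose (17.6%). Of all genes tested 13.8% fell and 16.3% rose, and of those at 20 CPM or more 21.4% fell and 26.1% rose. The box H/ACA group had a higher share that fell, 2 of 4 (50%). EBNA1BP2, a nucleolar scaffold protein for early large subunit assembly, stood at 60.6, 58.7 and 56.1 CPM on DMSO and at 50.0, 51.2 and 53.2 CPM on ZW27941. It fell by 0.19 on the log2 scale (SE 0.031, adjusted p = 0.000112, edgeR), with no overlap. NMD3, the adaptor through which the exporter CRM1 takes the large subunit out of the nucleus, stood at 80.8, 76.4 and 82.4 CPM on DMSO and at 70.0, 73.0 and 69.6 CPM on ZW27941. Its fall was -0.17 (SE 0.030, adjusted p = 0.000133, edgeR), and the groups were again separate. WDR74, which works with the ATPase NVL in the nucleolus, stood at 46.6, 47.1 and 47.0 CPM on DMSO and at 41.3, 40.4 and 43.97 CPM on ZW27941, ZW27941 replicate 3 being the closest to DMSO. Its log2 fold change was -0.16 (SE 0.031, adjusted p = 0.000363, edgeR). GNL2, a GTPase of the late nuclear steps, fell by 0.12 on the log2 scale (SE 0.025, adjusted p = 0.00134, edgeR). EBNA1BP2 shares 18.8% of its exon bases with CFAP57 and WDR74 12.2% with an antisense gene.

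The PeBoW complex, named after PES1, BOP1 and WDR12, is an assembly complex needed to process the precursor of large subunit RNA, and 2 of its 3 members fell. BOP1 stood at 147, 151 and 144 CPM on DMSO and at 133, 128 and 140.2 CPM on ZW27941. All 3 treated libraries were below the DMSO range, and BOP1 fell by 0.14 on the log2 scale (SE 0.029, adjusted p = 0.00108, edgeR). WDR12 stood at 95.005, 93.4 and 92.0 CPM on DMSO and at 86.2, 85.8 and 84.9 CPM on ZW27941, the treated libraries lying close together. It fell by 0.13 (SE 0.025, adjusted p = 0.000553, edgeR). PES1 stood at 130.05, 133 and 129.8 CPM on DMSO and at 133, 131 and 139 CPM on ZW27941. These groups overlapped, and the log2 fold change of 0.037 (95% confidence interval -0.017 to 0.091, adjusted p = 0.315, edgeR) did not pass. The difference between PES1 and its partners was not tested.

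NIP7, RRS1 and NOP2 were the large subunit factors that rose. NIP7, which binds the precursor during large subunit assembly, stood at 41.3, 41.4 and 40.8 CPM on DMSO and at 45.3, 44.2 and 48.3 CPM on ZW27941. Every treated library was above the DMSO range, ZW27941 replicate 3 the highest, and the log2 fold change was 0.16 (SE 0.032, adjusted p = 0.000566, edgeR). NIP7 shares 20.2% of its exon bases with COG8 on the other strand, and COG8 also rose, with a log2 fold change of 0.16 (adjusted p = 3.15e-04, edgeR). Without the strand setting, reads of the pair cannot be told apart. RRS1, which brings the 5S particle into the large subunit, stood at 31.7, 31.1 and 30.2 CPM on DMSO and at 34.7, 33.1 and 34.1 CPM on ZW27941. RRS1 rose by 0.13 on the log2 scale with no overlap (SE 0.031, adjusted p = 0.00242, edgeR). NOP2, a cytosine methyltransferase of large subunit RNA, stood at 74.6, 72.1 and 71.9 CPM on DMSO and at 76.1, 75.7 and 79.0 CPM on ZW27941. The gap between the groups was narrow, and NOP2 rose by 0.079 (SE 0.027, adjusted p = 0.0301, edgeR). It did not pass without DMSO replicate 2, DMSO replicate 3 or ZW27941 replicate 3, with an adjusted p of 0.0981, 0.117 and 0.116 (edgeR). In GENCODE v29 NOP2 shares 54.4% of its exon bases with AC006064.6, a symbol that the files do not list.

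The 8 other large subunit factors ran from -0.073 to 0.037, PES1 among them. GNL3 (nucleostemin), a nucleolar GTPase, was the closest to passing, at -0.073 (95% confidence interval -0.13 to -0.016) and an adjusted p of 0.05002 (edgeR), which is just over the threshold. It passed with RLE, upper quartile normalization, the minimum of 10 counts, the likelihood ratio test and DESeq2 (adjusted p from 0.0110 to 0.0476), and without ZW27941 replicate 3 (0.00113, edgeR). The helicases DDX18 (-0.030), DDX27 (-0.040) and DDX56 (-0.041) had confidence intervals that held 0, and so did NOP16 (-0.011), an early assembly factor. RRP1 and RRP1B are paralogs that take part in large subunit processing. RRP1 stood at 61.4, 60.6 and 59.4 CPM on DMSO and at 58.8, 60.0 and 63.5 CPM on ZW27941, with 0.0073 on the log2 scale (95% confidence interval -0.054 to 0.069). RRP1B stood at 69.0, 69.7 and 65.2 CPM on DMSO and at 69.3, 67.8 and 68.5 CPM on ZW27941, with 0.012 (interval -0.047 to 0.070). Both pairs of groups overlapped.

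Of 6 genes of the RNA polymerase I group, UBTF rose and no other passed (16.7%, beside 30.1% of all genes tested). UBTF, the factor that coats active ribosomal DNA and recruits the polymerase, stood at 172, 171 and 168 CPM on DMSO and at 196, 191 and 196 CPM on ZW27941. Each treated library exceeded each DMSO library, and UBTF rose by 0.19 on the log2 scale (SE 0.024, adjusted p = 4.18e-06, edgeR), or 13.9%. POLR1A, the largest subunit of the enzyme, stood at 117, 118 and 115 CPM on DMSO and at 117, 113 and 113 CPM on ZW27941 and overlapped, with -0.029 (95% confidence interval -0.081 to 0.022). POLR1B, the second largest subunit, stood at 94.2, 93.0 and 91.2 CPM on DMSO and at 95.7, 95.7 and 95.4 CPM on ZW27941. The treated libraries were all above the DMSO libraries by a small margin, with 0.042 on the log2 scale (interval -0.0089 to 0.094, adjusted p = 0.213, edgeR). POLR1C, a subunit shared with RNA polymerase III, stood at 47.9, 48.4 and 45.6 CPM on DMSO and at 44.4, 44.6 and 47.0 CPM on ZW27941, with -0.061 (interval -0.13 to 0.0030, adjusted p = 0.147, edgeR). It overlapped through ZW27941 replicate 3, without which it passed (adjusted p = 0.0264, edgeR). RRN3, the initiation factor that links the polymerase to its promoter, stood at 63.0, 62.3 and 62.0 CPM on DMSO and at 59.4, 61.0 and 60.0 CPM on ZW27941. These values did not overlap but lay close, with -0.055 on the log2 scale (interval -0.11 to -0.00078, adjusted p = 0.120, edgeR). DDX21, a helicase of ribosomal DNA transcription and snoRNA release, stood at 405, 391 and 391 CPM on DMSO and at 406, 394 and 406 CPM on ZW27941, with ZW27941 replicate 2 inside the DMSO range and 0.023 (interval -0.029 to 0.075). RRN3 has 3 pseudogenes with counts, RRN3P1, RRN3P2 and RRN3P3, that sum to 41.5% of its own level on DMSO, so its reads could be split among them, and 1 of the 3 fell.

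**Figure D3:**
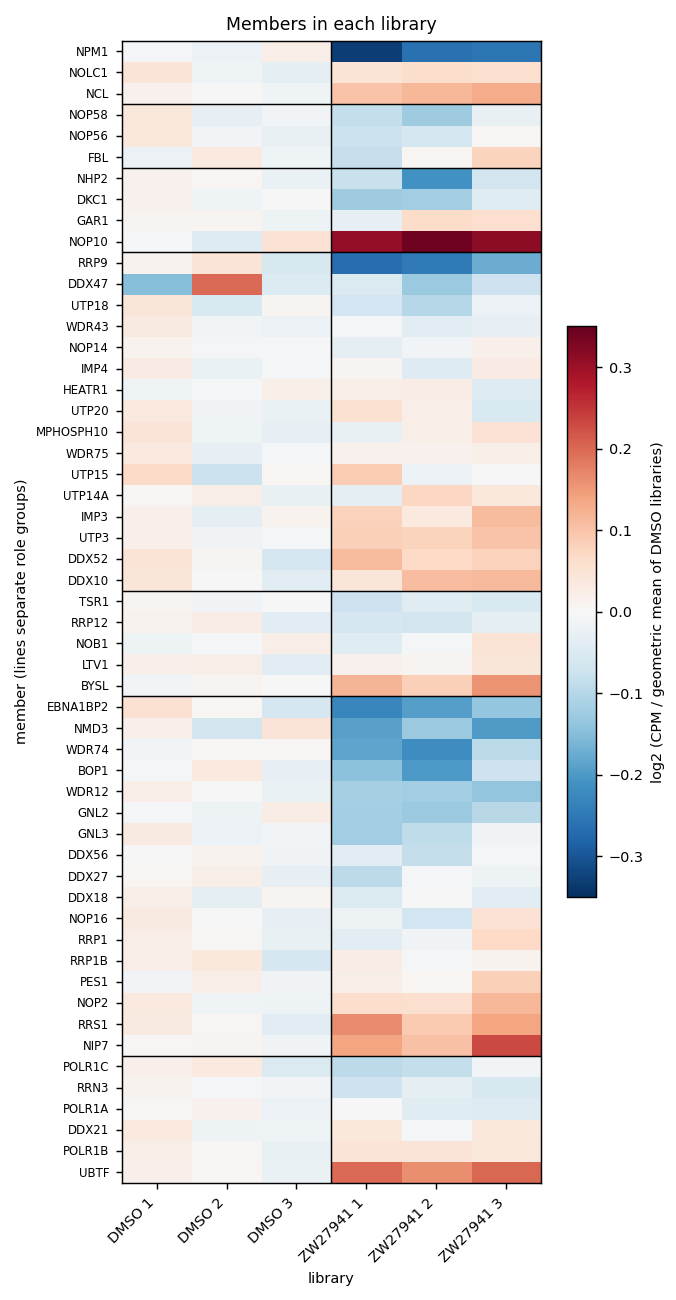
Each of the 54 factors (y axis, grouped by role) in each of the 6 libraries (x axis), coloured by log2 of CPM over the geometric mean of the DMSO libraries. NPM1 and RRP9 are blue and NOP10 and UBTF red in all 3 ZW27941 libraries, while most others stay pale, and DDX47 varies among the DMSO libraries.

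Taken as a sum, the 54 factors made up 7950.0 to 8055 CPM in the DMSO libraries and 7717 to 7955 CPM on ZW27941. NPM1 was 17.3% to 17.8% of that sum on DMSO and 14.4% to 14.9% on ZW27941. Without NPM1 the sums were 6533 to 6664 CPM and 6607 to 6785 CPM, and the groups overlapped. The median factor stood at 0.017, -0.0017 and -0.017 in the DMSO libraries, as log2 of CPM over the geometric mean of DMSO, and at -0.030, -0.0092 and 0.0079 on ZW27941. ZW27941 replicate 3 was thus the treated library with the highest median, and it also had the highest share of reads aligned to several places, 5.25% against 3.63% to 4.07% in the others. The part of that share in the values was not tested.

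Levels were also set per kilobase of the longest annotated transcript (1400 bases for FBL, 4034 for NCL), which may not be the one expressed. The order below holds only for these lengths. NPM1 was the highest factor on DMSO at 793 CPM per kb. FBL followed at 370 CPM per kb, NCL at 341 CPM per kb, NHP2 at 113.7 CPM per kb and NOP10 at 108 CPM per kb, the last pair with libraries that overlap. On ZW27941 the order of the top 3 was the same, at 653 CPM per kb for NPM1, 370 for FBL and 369 for NCL, where FBL and NCL could not be ordered beyond their spread. NOP10, at 135 CPM per kb, was above NHP2 at 105 CPM per kb, where DMSO had the opposite order. DDX47 was the lowest in both groups, at 0.443 and 0.415 CPM per kb.

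**Figure D4:**
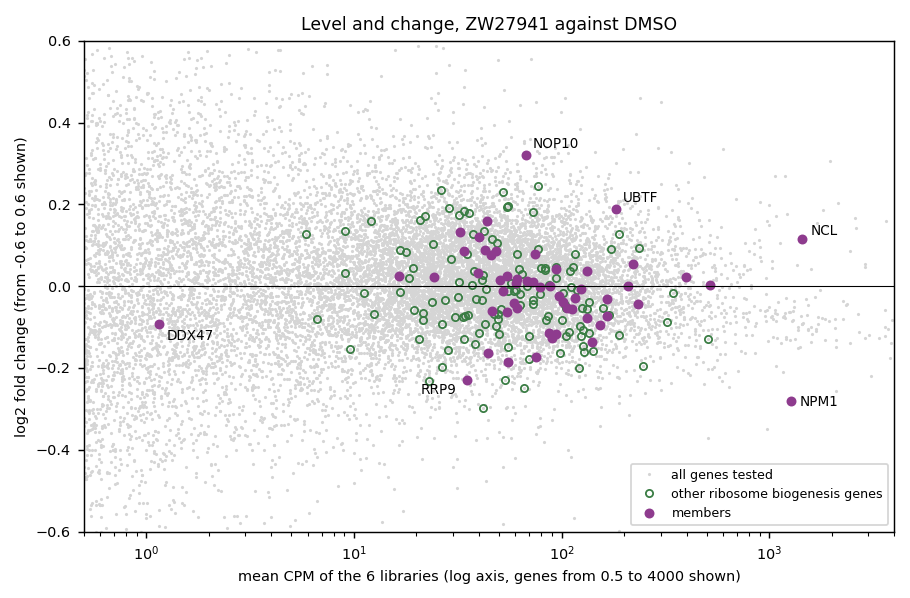
Mean CPM of the 6 libraries (log x axis, 0.5 to 4000 CPM) against log2 fold change (y axis, -0.6 to 0.6) for all genes tested within these limits (grey), 126 other ribosome biogenesis genes (green circles) and the 54 factors (purple). NPM1 is lower and NCL higher at nearly the same level, and NOP10 is the highest purple point.

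The rest of the pathway was described with 126 further genes, all of which passed the filter on low counts. Of these, 38 fell (30.2%) and 25 rose (19.8%), with a median log2 fold change of -0.028, where the 54 factors had 11, 10 and -0.00093. Among all genes tested 13.8% fell and 16.3% rose, and among genes at 20 CPM or more 21.4% fell and 26.1% rose. With upper quartile normalization 52 of the further genes fell and 19 rose. The 5 with the lowest p among those that fell were EXOSC5 of the RNA exosome (-0.25), RSL24D1 (-0.20), RIOK3 (-0.20), GNL3L (-0.30) and NLE1 (-0.23), of which RSL24D1, GNL3L and NLE1 act on the large subunit. Among those that rose they were NOP9 (0.25), POP5 of RNase MRP (0.23), UTP23 (0.19), ABT1 (0.20) and DNTTIP2 (0.18), of which NOP9, UTP23, ABT1 and DNTTIP2 act in the small subunit processome. Counts by role were 15 lower and 7 higher of 43 for the large subunit, 8 and 5 of 28 for the processome, 3 and 1 of 7 for late small subunit steps, 6 and 6 of 26 for the exosome and RNase MRP, and 3 and 2 of 10 for snoRNP assembly. Of 12 further genes of the RNA polymerase I machinery, 3 fell and 4 rose. The polymerase subunits POLR1D (0.092) and POLR1F (0.079) rose, as did TAF1B (0.17), a promoter factor, and TTF1 (0.13), the terminator protein. POLR1E (-0.12) and POLR1H (-0.13), also polymerase subunits, fell together with TAF1D (-0.16).

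The factors that fell and those that rose were alike in the GC content of their longest transcript, with medians of 48.4% and 48.2%, beside 47.8% for those that did not pass. Median lengths were 2046 bases for the 11 lower factors and 3487 bases for the 10 higher factors, with ranges of 865 to 8100 and 554 to 6707 bases. Median levels on DMSO were 93.5 CPM and 44.2 CPM. Exons of 31 factors share bases with another gene in GENCODE v29, over 10% of their bases in 14.

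Promoter stretches from 250 bases before to 50 bases after the RefSeq start were at hand for 45 of the 54 factors. The E box CACGTG was found in 18 of the 45 (40.0%), where 12.3% of the 10748 tested genes with an entry and 8.77% of all 27305 genes with an entry hold it. Its carriers did not separate by direction: 3 of 8 factors that rose (BYSL, NOP10 and NOP2), 3 of 9 that fell (EBNA1BP2, GNL2 and RRP9) and 12 of 28 that did not pass held an E box. The ETS motif CCGGAAGT was found in 12 (26.7%), beside 9.36% of tested genes, with 1 of 8, 2 of 9 and 9 of 28 in the same order. YY1's AAGATGGC was found in 4 (8.89%, tested genes 6.22%) and the GC box GGGCGG in 32 (71.1%, tested genes 73.2%). These are matches of letters in a window, counted per gene, and were not tested.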

How the data were processed

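RNA of MOLM13 cells was sequenced in 6 libraries, 3 per group. The deposited values are raw read counts for each gene symbol, which the authors made, per the submitters' processing notes, with HISAT2, SAMtools 1.19.2 and HTSeq 2.0.3 on hg38. The annotation, the counting mode and the strand setting are not given in the sources used here, and without strand a gene and its antisense partner cannot be told apart. HTSeq's 5 tallies of unassigned reads, 37.4% to 39.8% of all entries per library, were left out. Of 56305 genes, 21603 had no count in any library. Each library has 143454176 to 178744976 counts on genes, and the lowest raw count of a factor was 153 (DDX47). These totals exceed the 50M raw reads per sample named in the labels, so the number of independent reads behind a count is not known. The spread between libraries was 3.11% (biological coefficient of variation).

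The deposited counts were fitted with edgeR 4.0.16 under R 4.3.3 (TMM, filterByExpr, quasi-likelihood fit with the group as the only term) on all 20399 genes that passed the filter, with Benjamini-Hochberg adjusted p-values and a threshold of 0.05. CPM use TMM factors. The fit was tested on simulated data. A fold change is the fitted log2 value, with SE and 95% confidence interval from the fit. No test was run over the list of factors. Alternatives were RLE, upper quartile and library size scaling, no filter, at least 10 counts in every library, DESeq2 1.42.0, edgeR's likelihood ratio test, the replicate number as a block, a threshold of 0.01, and each library left out in turn.

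The factors, role groups, further pathway genes and motifs were chosen with earlier results of these data known. Each factor is named with its log2 fold change. Values of every library are given for the small complexes, NPM1, NCL, the pair RRP1 and RRP1B, and up to 3 factors per role group and direction with the lowest p among those that passed, with NOLC1 added after its values were seen. SNU13, one of the further pathway genes, was added outside this rule. Lengths, GC content and overlaps came from GENCODE v29, which may differ from the authors' annotation, and promoters from RefSeq (GRCh38.p14), with no entry used for 9 factors.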

Additional observations from a re-analysis of the deposited data

How the results depend on the processing

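Of the 21 factors that passed, none changed sign under any alternative, 16 passed at the 0.05 threshold under every alternative that kept all libraries, and 14 passed under those and with each library left out. The number that fell was 17 with upper quartile normalization, and 8 to 15 with 1 library left out. The number that rose was 6 with upper quartile normalization, 6 at an adjusted p under 0.01, and 6 to 11 with 1 library left out. Upper quartile normalization lowers the median of all genes to -0.025 and that of the factors to -0.024, and with 1 library left out the median of the factors ran from -0.024 to 0.00071. The number of factors without overlap ran from 26 to 33 with 1 library left out, where fewer libraries have to separate.

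No pairing by replicate number was seen: the correlations of same-numbered deviations were -0.066, -0.072 and 0.042, and DMSO replicate 2 correlated best with ZW27941 replicate 1 (0.18). With 3 libraries per group, each centred on its group mean, these values cannot show whether same-numbered libraries were handled together. With a replicate block, 11 factors fell and 7 rose, and of the further pathway genes 34 fell and 23 rose. Of the further pathway genes 52 fell and 19 rose with upper quartile normalization, and 45 fell and 25 rose without ZW27941 replicate 3. DDX10, DDX52 and NOP2 did not pass with the replicate block, at adjusted p of 0.0547, 0.0534 and 0.0525 (edgeR). DDX52 also missed the threshold with RLE (0.0501, edgeR) and DESeq2 (0.0636), and NOP58 with library size only (0.0744, edgeR). Upper quartile normalization ended the calls of UTP3, DDX10, DDX52 and NOP2.

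Only factors that did not pass changed sign. With upper quartile normalization the log2 fold change was -0.021 for FBL, -0.022 for HEATR1, -0.0064 for WDR75, -0.014 for UTP20, -0.0085 for MPHOSPH10, -0.023 for NOB1, -0.00087 for LTV1, -0.016 for RRP1, -0.012 for RRP1B and -0.00083 for DDX21. With RLE it was -0.00065 for FBL, -0.0025 for HEATR1 and -0.0036 for NOB1. With library size only it was 0.0022 for NOP14 and 0.0081 for IMP4, and without a filter 0.0037 for IMP4. With at least 10 counts in every library it was -0.00049 for HEATR1 and -0.0018 for NOB1, with DESeq2 -0.00040 for HEATR1 and -0.0016 for NOB1 and with the replicate block -0.00015 for NOB1. With 1 library left out, the values ran from -0.039 to 0.043 for FBL, from -0.012 to 0.022 for HEATR1, from -0.012 to 0.059 for UTP15, from -0.014 to 0.037 for UTP20, from -0.023 to 0.0041 for NOP14, from -0.019 to 0.018 for IMP4, from -0.0055 to 0.038 for MPHOSPH10, from -0.16 to 0.015 for DDX47, from -0.027 to 0.022 for NOB1, from -0.045 to 0.015 for NOP16, from -0.028 to 0.031 for RRP1 and from -0.017 to 0.031 for RRP1B. For each of these factors the 95% confidence interval held 0 in the fit of all libraries.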
